A study of Mus musculus with 4 samples.

Results

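The genes described here are those of the cytosolic HSP70, HSP110 and HSP90 chaperones together with Hsf1, 10 genes of the 51826 rows of the expected count table, taken by their gene symbols (Hsph1, Hspa4, Hspa4l, Hspa1a, Hspa1b, Hspa1l, Hspa8, Hsp90aa1, Hsp90ab1 and Hsf1). Each symbol stood on 1 row, and all 10 genes passed the filter on low counts in all 4 mice together. The genes were chosen by their family and with their log2 fold changes and adjusted p between WT and Mef2dα2 Eko quadriceps in these mice known, so the difference between the genotypes is given as a description.

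RNA-seq was performed on polyA-selected RNA from the quadriceps of male mice at about 20 weeks of age, 2 of them WT and 2 Mef2dα2 Eko, with 1 library per mouse. All 4 mice were sedentary, were kept on standard chow in a cycle of light and dark, and were of the C57BL6/J background. Mef2dα2 Eko mice lack the muscle-specific α2 exon of Mef2d, a gene of the MEF2 family of transcription factors, after a deletion made with CRISPR-Cas9 in the germline, so the exon is missing in every cell type and not only in muscle fibers. The study used more than one founder line, and the labels do not give the line of these mice.

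HSP70 chaperones bind exposed hydrophobic stretches of unfolded proteins and release them in a cycle driven by ATP. J-domain proteins deliver the substrates and start ATP hydrolysis, and HSP110 proteins, which are distant relatives of HSP70, exchange the nucleotide and so let the substrate go. HSP90 receives part of these clients, among them kinases and steroid receptors, and in striated muscle HSP90 and its partners also take part in the folding of myosin. HSF1 is the transcription factor that raises the inducible members of these families when unfolded proteins accumulate, by binding arrays of the heat shock element in their promoters.

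Total expected counts ranged from 72626757 to 85176059 per library, so that 3 counts corresponded to 0.0352 to 0.0413 CPM before TMM scaling, a limit that covers counting error only. The CPM of genes below are counts scaled by library size and TMM factor. The fewest counts behind any value of the 10 genes were the 343 of Hspa1b in Mef2dα2 Eko 1. WT 1 stood apart from the other libraries in a chi-square statistic on the counts of the genes tested, with 130 to 230 per degree of freedom against each of them. The other 3 libraries lay between 38.7 and 45.3 from one another. Abundant genes weigh most in this statistic, so it does not show a difference spread over all genes. The gene-level count of Mef2d cannot check the loss of 1 exon, and it was 259 and 227 CPM in WT and 252 and 241 CPM in Mef2dα2 Eko mice. Markers of skeletal muscle fibers summed to 127727 to 134478 CPM in all 4 libraries, in keeping with the labelled tissue. Each value below comes from a whole muscle, in which fewer cells of a type and less RNA per cell cannot be told apart.

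Because HSF1 acts through a short promoter sequence, the promoters of the genes were searched first. RefSeq promoters of the GRCm38.p6 assembly, 250 bases before and 50 bases after a transcription start, were held for 6 of the 10 genes (Hsph1, Hspa4, Hspa4l, Hspa1a, Hspa1b and Hspa1l), and the promoters of Hspa8, Hsp90aa1, Hsp90ab1 and Hsf1 were not used here. The heat shock element was searched as 2 inverted units, GAANNTTC or TTCNNGAA, each of which reads the same on both strands and may overlap the other. It was found in 3 of the 6 genes, beside 4587 of the 27025 genes in the table (17.0%) and 15.1% of its 32851 promoters. In Hspa1a and Hspa1b the same unit pair began 104 bases before the start. Hsph1 held a pair that began 33 bases before the start of its first listed promoter and 2 overlapping pairs after the start, which together make 3 units in a row, an arrangement in 0.603% of all promoters. The windows of Hspa4, Hspa4l and Hspa1l held no match to these letters, and no window of the 6 genes matched the MEF2 consensus, which 3.19% of all promoters held. The 4 sequences below are shown because they hold the elements of the inducible genes and, for Hspa1l, the neighboring start that faces Hspa1a. They are written 5′ to 3′ on the strand of the gene, with heat shock element pairs in capitals.
Hspa1a, chr17:34972107-34972406, minus strand: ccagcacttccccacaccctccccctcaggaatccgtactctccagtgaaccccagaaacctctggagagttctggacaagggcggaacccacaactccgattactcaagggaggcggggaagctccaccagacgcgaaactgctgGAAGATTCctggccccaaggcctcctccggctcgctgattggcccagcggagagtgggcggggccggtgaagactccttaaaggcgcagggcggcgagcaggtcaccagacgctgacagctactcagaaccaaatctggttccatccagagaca
Hspa1b, chr17:34959189-34959488, minus strand: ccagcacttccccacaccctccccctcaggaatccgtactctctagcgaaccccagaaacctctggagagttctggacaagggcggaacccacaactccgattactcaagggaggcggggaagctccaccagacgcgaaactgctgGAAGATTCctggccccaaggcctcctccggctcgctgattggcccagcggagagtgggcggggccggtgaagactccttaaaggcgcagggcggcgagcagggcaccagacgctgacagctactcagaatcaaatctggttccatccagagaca
Hsph1, chr5:149636287-149636586, minus strand: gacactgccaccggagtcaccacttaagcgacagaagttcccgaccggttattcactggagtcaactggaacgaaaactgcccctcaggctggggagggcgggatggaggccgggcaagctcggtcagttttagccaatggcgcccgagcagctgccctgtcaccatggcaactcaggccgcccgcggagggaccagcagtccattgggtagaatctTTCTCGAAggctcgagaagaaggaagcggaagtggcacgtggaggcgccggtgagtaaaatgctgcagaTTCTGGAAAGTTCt
Hspa1l, chr17:34972453-34972752, plus strand: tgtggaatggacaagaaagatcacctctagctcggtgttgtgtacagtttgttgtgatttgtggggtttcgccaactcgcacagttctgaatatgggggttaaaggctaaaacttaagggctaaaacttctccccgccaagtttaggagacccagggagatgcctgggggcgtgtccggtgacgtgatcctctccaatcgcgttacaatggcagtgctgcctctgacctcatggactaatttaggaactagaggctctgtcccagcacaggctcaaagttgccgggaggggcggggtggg
The windows of Hspa1a and Hspa1b differed at 4 of 300 bases. A match is a description of the letters and not a measured binding site.

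All 10 genes had a negative log2 fold change in Mef2dα2 Eko compared to WT mice, with a median of -0.57 beside -0.01 over the 16120 genes tested. In 9 of the 10 genes both Mef2dα2 Eko mice lay below both WT mice and in 0 of 10 above both, whereas 23.0% and 20.8% of all genes tested showed these orders. The exception was Hsp90ab1, the constitutive HSP90. The quasi-likelihood test of edgeR, at a threshold of 0.05 on the adjusted p, called 3 genes lower in Mef2dα2 Eko mice (Hsph1, Hspa4l and Hspa1l) and 0 higher. Over all genes tested 0.416% were called, 0.310% lower and 0.105% higher. At an unadjusted p below 0.05 the number was 8 of the 10 genes, beside 1864 of all 16120 genes, and DESeq2 also called 3 of the genes, with 1.15% of all genes called lower. The genes with the largest differences, Hspa1a and Hspa1b, were not among those called, and for these WT 2 had 3.70 and 4.27 times the level of WT 1.

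**Figure D1:**
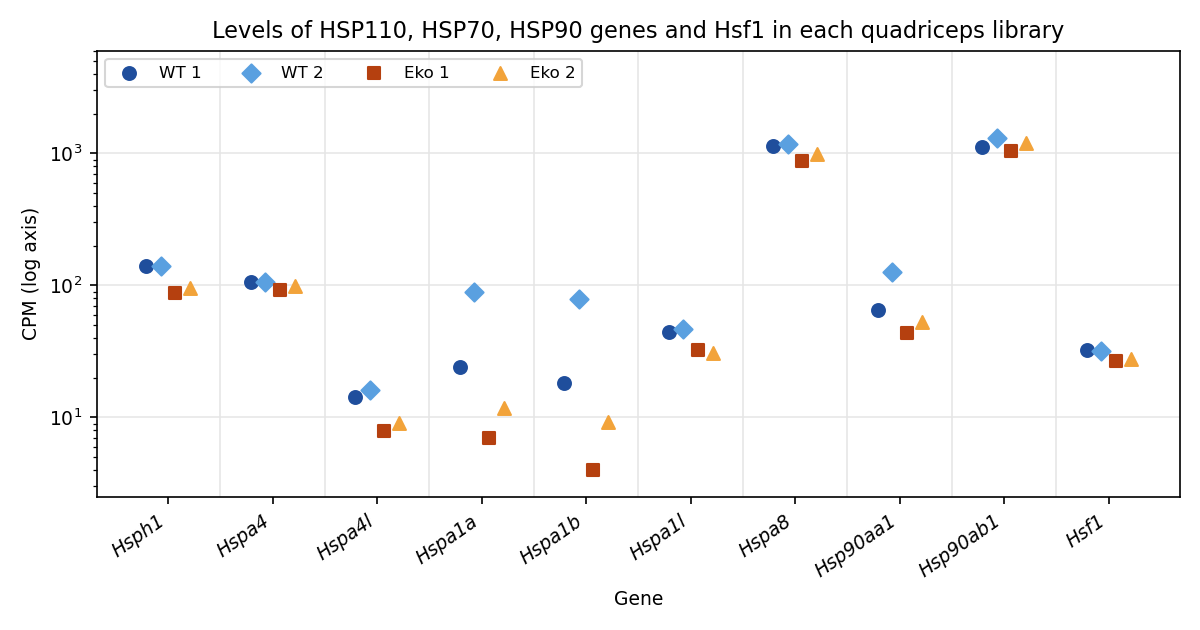
Level of each gene in each of the 4 quadriceps libraries, in CPM on a log axis, with 1 point per mouse and genes on the horizontal axis. The WT points of Hsph1, Hspa4l and Hspa1l sit close together above the Mef2dα2 Eko points, whereas WT 2 lies far above WT 1 for Hspa1a (90.0 against 24.3 CPM), Hspa1b (78.6 against 18.4) and Hsp90aa1 (126 against 65.5).

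Of the HSP110 genes, Hsph1 and Hspa4l fell and Hspa4 did not pass the test. Hsph1 encodes HSP105, the heat-inducible HSP110 (chr5:149614287-149636376, minus strand, 18 exons in its longest coding transcript). Its level was 140 and 141 CPM in WT and 87.8 and 96.5 CPM in Mef2dα2 Eko mice. The genotypes did not overlap and the mice of each genotype lay close together, with 140 ± 1.06 CPM in WT and 92.2 ± 6.15 CPM in Mef2dα2 Eko mice (SD, n = 2 each). The log2 fold change was -0.61 (SE 0.07, edgeR adjusted p = 0.0424), so that Mef2dα2 Eko mice had 65.7% of the WT level. Hsph1 passed the threshold in all 13 alternative analyses run, with adjusted p values up to 0.0492.

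Hspa4l encodes APG-1, an HSP110 known best from testis and from osmotic stress (chr3:40744495-40796103, plus strand). It measured 14.3 and 16.1 CPM in WT and 7.92 and 9.03 CPM in Mef2dα2 Eko mice, and again no Mef2dα2 Eko mouse reached a WT mouse. The log2 fold change was -0.84 (SE 0.11, edgeR adjusted p = 0.0463), which was the largest among the 3 genes called. Hspa4 encodes APG-2, the HSP110 that is expressed in most tissues without stress (chr11:53259814-53300457, minus strand). It was at 106 CPM in both WT mice, compared to 93.2 and 98.6 CPM in Mef2dα2 Eko mice, a small gap with a log2 fold change of -0.14 (SE 0.07, edgeR adjusted p = 0.477). The Mef2dα2 Eko means stood at 65.7%, 55.8% and 90.6% of WT for Hsph1, Hspa4l and Hspa4, and the differences between these genes were not tested. The coding sequences of the 3 genes are 63.3% to 67.3% identical by pairwise alignment and share no window of 75 bases.

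Hspa1a and Hspa1b encode the stress-inducible HSP70 and lie beside each other on chromosome 17 within the major histocompatibility complex (chr17:34969190-34972156 and chr17:34956436-34959238, both minus strand, 1 exon each, 9951 bases between them). Hspa1a was at 24.3 CPM in WT 1, 90.0 in WT 2, 7.02 in Mef2dα2 Eko 1 and 11.8 in Mef2dα2 Eko 2. Hspa1b followed the same order, with 18.4, 78.6, 3.98 and 9.26 CPM. For both genes the Mef2dα2 Eko mice lay below the WT mice, and WT 2 stood alone at the top. The log2 fold change was -2.61 for Hspa1a (SE 0.57, edgeR adjusted p = 0.178) and -2.89 for Hspa1b (SE 0.68, edgeR adjusted p = 0.204), so neither passed the test. The SD of the WT mice was close to their mean, 57.1 ± 46.4 CPM for Hspa1a and 48.5 ± 42.5 CPM for Hspa1b (n = 2 each).

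The coding sequences of Hspa1a and Hspa1b differ at 8 of 1923 aligned bases (99.6% identical), and 75.4% of the windows of 75 bases in Hspa1a also stand in Hspa1b, so the division of reads between the 2 rows rests on RSEM's model. Their sum does not depend on that division. It was 42.7 and 169 CPM in WT and 11.0 and 21.0 CPM in Mef2dα2 Eko mice. Even the lower WT mouse had 2.03 times the sum of the higher Mef2dα2 Eko mouse, and the fit on the sum gave a log2 fold change of -2.73 (SE 0.62, edgeR adjusted p = 0.184). The antisense gene Gm20481, which overlaps Hspa1a, had 0 counts in all 4 libraries.

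Hspa1l, an HSP70 that is not heat-inducible and is known best from testis, starts 546 bases from Hspa1a on the opposite strand (chr17:34972703-34979285, plus strand, 2 exons). It was at 44.7 and 46.4 CPM in WT and 32.6 and 30.6 CPM in Mef2dα2 Eko mice. Unlike its neighbors it barely differed between the 2 WT mice, and the genotypes did not overlap. The log2 fold change was -0.53 (SE 0.07, edgeR adjusted p = 0.0481), and Hspa1l thereby passed the threshold by a narrow margin. It lost the call with RLE normalization (adjusted p = 0.0502), with a filter of 1 CPM in 2 libraries (0.0565) and without Mef2dα2 Eko 2 (0.0892). The coding sequences of Hspa1l and Hspa1a are 83.3% identical and share 9.2% of their windows of 75 bases. The antisense gene Gm10501 overlaps exons of Hspa1l and had 1.5, 1.76, 0.847 and 1.85 CPM in WT 1, WT 2, Mef2dα2 Eko 1 and Mef2dα2 Eko 2, far below Hspa1l, and did not pass the test (log2 fold change -0.29, SE 0.36, edgeR adjusted p = 0.808).

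Hspa8 encodes HSC70, the HSP70 present in all cells without stress, and was one of the 2 most abundant genes here (chr9:40800984-40810087, plus strand). Its level was 1132 and 1175 CPM in WT and 878 and 991 CPM in Mef2dα2 Eko mice. The genotypes did not overlap, but the log2 fold change of -0.30 did not pass the test (SE 0.08, edgeR adjusted p = 0.262).

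Of the HSP90 genes, neither passed the test. Hsp90aa1 encodes HSP90α, the inducible form (chr12:110690605-110702728, minus strand). It was at 65.5 CPM in WT 1, 126 in WT 2, 43.6 in Mef2dα2 Eko 1 and 53.1 in Mef2dα2 Eko 2, again with WT 2 standing alone. The log2 fold change was -0.99 (SE 0.27, edgeR adjusted p = 0.262). Hsp90ab1 encodes HSP90β, the constitutive form (chr17:45567775-45573271, minus strand), and measured 1115 and 1319 CPM in WT and 1050 and 1206 CPM in Mef2dα2 Eko mice. Here the genotypes overlapped, as Mef2dα2 Eko 2 lay above WT 1, and the log2 fold change was -0.11 (SE 0.11, edgeR adjusted p = 0.746). Its sign was not stable, with a log2 fold change of 0.03 without WT 2. The 2 coding sequences are 76.2% identical and share no window of 75 bases.

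Hsf1, the regulator, was nearly the same in mice of one genotype (chr15:76477422-76501913, plus strand). It was at 32.3 and 31.9 CPM in WT and 26.9 and 27.7 CPM in Mef2dα2 Eko mice. The genotypes did not overlap, and the log2 fold change was -0.23 (SE 0.07, edgeR adjusted p = 0.283). Hsf1 passed the threshold in 0 of 13 alternatives. HSF1 is controlled chiefly by its binding to chaperones and by modification of the protein, neither of which a transcript level measures.

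**Figure D2:**
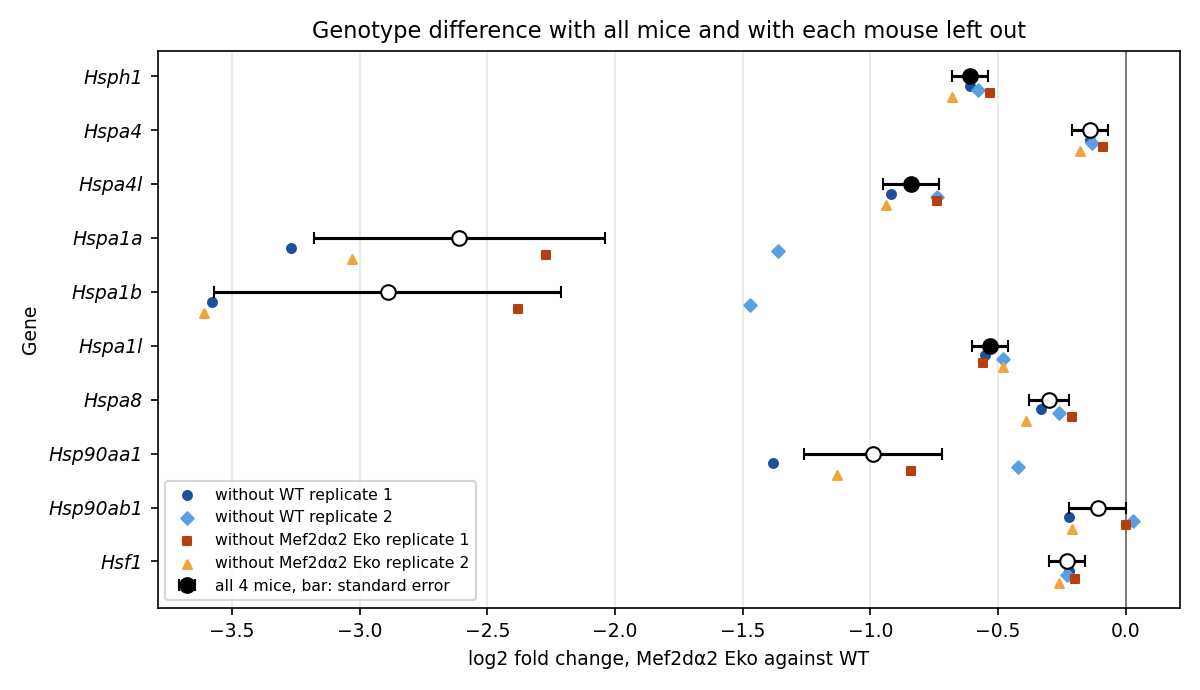
Log2 fold change of each gene in Mef2dα2 Eko compared to WT mice with all 4 mice (large points, bars give the standard error, filled points passed an adjusted p below 0.05) and with each mouse left out (small points). Hspa1a, Hspa1b and Hsp90aa1 move towards 0 without WT 2, to -1.36, -1.47 and -0.42, and the other genes move little.

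Leaving out each mouse in turn showed which values rest on 1 library. Without WT 2 the log2 fold change was -1.36 for Hspa1a (edgeR adjusted p = 0.0251), -1.47 for Hspa1b (0.0814) and -0.42 for Hsp90aa1 (0.126), compared to -2.61, -2.89 and -0.99 with all mice. Hspa1a thus passed the test without its highest library, with WT 1 alone as the comparison and the spread taken from the Mef2dα2 Eko mice and all genes. Hsph1 (-0.58), Hspa4l (-0.74) and Hspa1l (-0.48) stayed past the threshold without WT 2, so 4 of the 10 genes were called, beside 1.03% of all genes called lower in that fit. Both Mef2dα2 Eko mice were below WT 1 in 9 of the 10 genes, an order shown by 38.3% of all genes. Without WT 1, the library that stood apart in the chi-square statistic, the log2 fold change was -3.27 for Hspa1a, -3.58 for Hspa1b and -1.38 for Hsp90aa1. For Hspa1a and Hspa1b it was -2.27 and -2.38 without Mef2dα2 Eko 1, and -3.03 and -3.61 without Mef2dα2 Eko 2. In each of these fits the genotype left with 1 mouse was assumed to vary like the other.

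Hspa1a, Hspa1b and Hsp90aa1 differed most between mice of the same genotype, whereas the heat-inducible Hsph1 had a ratio of WT 2 to WT 1 of 1.01. WT 2 had 4.27 times the Hspa1b level of WT 1, 3.70 times its Hspa1a level and 1.92 times its Hsp90aa1 level. Among the 12133 genes tested with a mean of at least 1 CPM, these ratios ranked 9, 12 and 52 from the top, and 1.5% of those genes had at least 1.5 times the level in WT 2. The other 7 genes had ratios of 0.987 to 1.18. The Mef2dα2 Eko mice showed the same order of genes at a smaller size, with 2.33-fold for Hspa1b, 1.68-fold for Hspa1a and 1.22-fold for Hsp90aa1 between Mef2dα2 Eko 2 and Mef2dα2 Eko 1. In all, 9 of the 10 genes were higher in Mef2dα2 Eko 2 than in Mef2dα2 Eko 1, and 49.6% of all genes tested were. Hspa1l was the exception, with a ratio of 0.938.

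**Figure D3:**
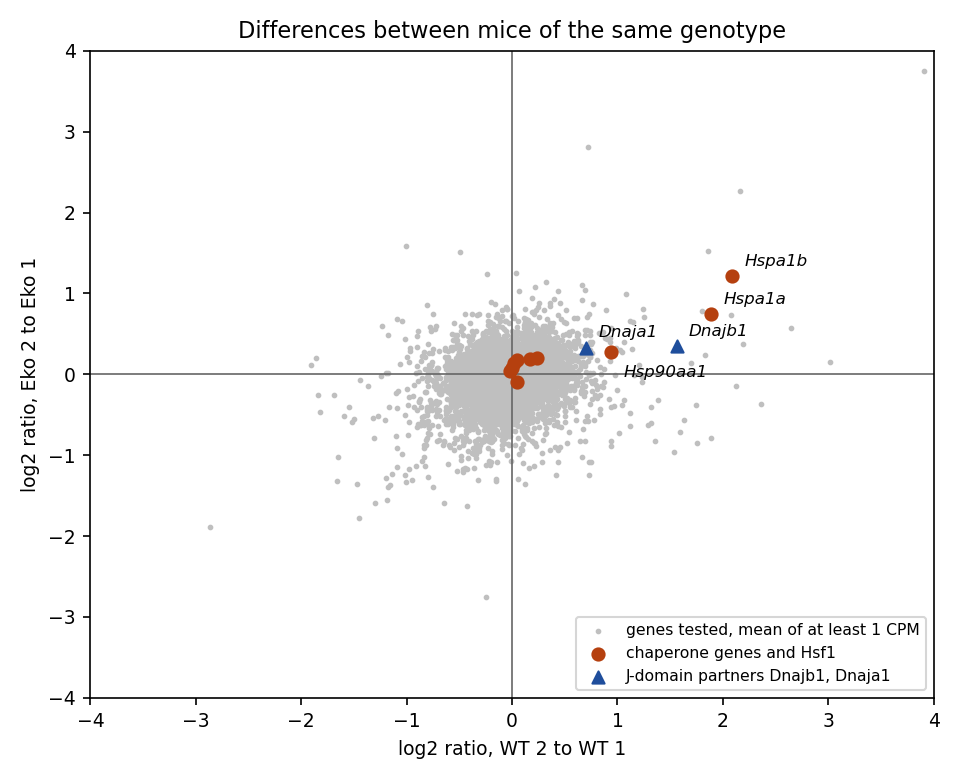
Log2 ratio of WT 2 to WT 1 (horizontal axis) against the log2 ratio of Mef2dα2 Eko 2 to Mef2dα2 Eko 1 (vertical axis), with 1 point per gene and 6 of the 12133 genes beyond the axes, which end at 4 log2 units in each direction. Hspa1b (2.09 and 1.21), Hspa1a (1.89 and 0.74) and the J-domain gene Dnajb1 (1.56 and 0.35) lie to the upper right, outside the cloud of all genes with a mean of at least 1 CPM, and Hsp90aa1 lies at 0.94 and 0.28.

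Genes that respond quickly to handling or neural activity varied between the same mice. Of 13 immediate early genes, 0 were called, and they did not all vary in one direction. Their median log2 ratio of mouse 2 to mouse 1 was -0.52 in WT and -0.59 in Mef2dα2 Eko mice. Nr4a3, an orphan nuclear receptor that is strongly induced by muscle contraction, was at 3.06 and 13.8 CPM in WT and 1.77 and 8.75 CPM in Mef2dα2 Eko mice, and so was higher in mouse 2 of both genotypes. Egr1, a zinc finger transcription factor, had the opposite order, with 22.2 and 2.99 CPM in WT and 10.1 and 2.70 CPM in Mef2dα2 Eko mice. Fosb, a subunit of AP-1, also had the opposite order, with 1.11, 0.309, 3.49 and 0.0839 CPM in WT 1, WT 2, Mef2dα2 Eko 1 and Mef2dα2 Eko 2. Among 12 clock genes tested, 0 were called, and Nr1d1 (REV-ERBα) was at 117 and 54.4 CPM in WT and 70.2 and 41.3 CPM in Mef2dα2 Eko mice. The part of these differences in the Hspa1a, Hspa1b and Hsp90aa1 values was not tested.

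To compare levels between genes, CPM was divided by the exon length of each gene in kb. Hsp90ab1 was highest, with a mean over the 4 mice of 391 CPM per kb (350 to 440), and Hspa8 was next with 243 (204 to 273), and these 2 ranges did not overlap. The other genes were far lower. Hsp90aa1 (18.3 CPM per kb), Hspa4 (18.2), Hsph1 (16.0), Hspa1l (15.6), Hspa1a (11.2) and Hspa1b (9.83) followed, and the ranges of neighbors in this order overlapped. Hsf1 came at 4.19 CPM per kb (3.79 to 4.56), a range that lay within that of Hspa1b. Hspa4l was lowest at 1.00 CPM per kb (0.672 to 1.36), apart from Hsf1, with the longest annotated exon length of the 10 genes, 11.792 kb over all its transcripts. The place of Hspa1a beside Hsph1 differed between the genotype means, but this rested on WT 2. In WT mice Hspa1a (19.3 ± 15.7 CPM per kb, SD, n = 2) had the same mean as Hsph1 (19.3 ± 0.146), whereas in Mef2dα2 Eko mice it stood at 3.17 ± 1.13 against 12.7 ± 0.846. Only in WT 2 was Hspa1a above Hsph1 (30.3 against 19.4 CPM per kb). It was below Hsph1 in WT 1 (8.19 against 19.2), Mef2dα2 Eko 1 (2.37 against 12.1) and Mef2dα2 Eko 2 (3.97 against 13.3).

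The partners of these chaperones were followed in 7 lists that together held 74 tested genes. Of these, 3 were lower in Mef2dα2 Eko mice, 0 were higher, and the median log2 fold change was -0.09. Both Mef2dα2 Eko mice lay below both WT mice in 36 of the 74 genes (48.6%) and above both in 8 (10.8%), beside 23.0% and 20.8% of all genes tested. The other HSP70 family, which holds cytosolic genes and genes of the endoplasmic reticulum and mitochondria, had 8 tested genes, none called (median -0.06, range -0.15 to 0.13), among them Hyou1, the HSP110 of the endoplasmic reticulum, at 19.6 and 19.5 CPM in WT and 18.1 and 17.9 CPM in Mef2dα2 Eko mice. The other HSP90 genes, Hsp90b1 of the endoplasmic reticulum and Trap1 of mitochondria, had log2 fold changes of 0.00 and 0.01.

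Among 27 HSP90 co-chaperones, 1 was lower and 0 were higher (median -0.05). The gene called was Fkbp5, an HSP90-binding immunophilin whose transcription is raised by glucocorticoids, at 45.7 and 41.2 CPM in WT and 25.2 and 24.7 CPM in Mef2dα2 Eko mice (log2 fold change -0.80, SE 0.08, edgeR adjusted p = 0.0301). Stip1, or HOP, joins HSP70 to HSP90 and was at 88.9 and 92.0 CPM in WT and 63.8 and 70.1 CPM in Mef2dα2 Eko mice, but did not pass the test (edgeR adjusted p = 0.0995). Sugt1 had the largest positive value of the list, with a log2 fold change of 0.36 (edgeR adjusted p = 0.301).

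Of 9 exchange factors and partners of HSP70, 1 was lower and 0 were higher (median -0.12). This was Bag3, which with HSP70 and HSPB8 removes damaged filamin at the Z-disc, at 183 and 176 CPM in WT and 125 and 131 CPM in Mef2dα2 Eko mice (log2 fold change -0.49, SE 0.07, edgeR adjusted p = 0.0480). The others with the largest values, Sgta (-0.21) and Bag4 (0.22), were not called. Of 11 cytosolic J-domain genes, 1 was lower and 0 were higher (median 0.00). The gene called was Dnaja4, at 93.2 and 92.7 CPM in WT and 63.7 and 58.1 CPM in Mef2dα2 Eko mice (log2 fold change -0.61, SE 0.07, edgeR adjusted p = 0.0424). Dnajb1, the HSP40 that is induced together with HSP70, was at 7.09, 21.0, 6.28 and 8.01 CPM in WT 1, WT 2, Mef2dα2 Eko 1 and Mef2dα2 Eko 2. The genotypes overlapped, with WT 2 alone at the top as in Hspa1a, and the log2 fold change of -0.98 did not pass the test (SE 0.44, edgeR adjusted p = 0.458). Dnaja1 had the same order of mice, with 44.1 and 71.9 CPM in WT and 35.5 and 44.5 CPM in Mef2dα2 Eko mice (edgeR adjusted p = 0.419).

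The other genes of the heat shock response were called in 0 of 12 cases in edgeR's quasi-likelihood test, but all 12 had a log2 fold change below 0 (median -0.24, range -0.66 to -0.13), and in 10 of the 12 both Mef2dα2 Eko mice lay below both WT mice (23.0% of all genes tested). Over all lists DESeq2 called 10 genes, beside 1.97% of all genes tested called in either direction. Of these 10, 4 were from this list (Cryab, Hspb1, Hspb8 and Hspe1). Fnip1, an HSP90 co-chaperone, was also among the 10, with a positive log2 fold change in edgeR's test (0.29). Cryab, the αB-crystallin of the sarcomere, was at 570 and 578 CPM in WT and 403 and 349 CPM in Mef2dα2 Eko mice and missed the threshold narrowly (log2 fold change -0.61, SE 0.09, edgeR adjusted p = 0.0501). Hspb1, the small heat shock protein HSP27 in humans, was at 104 and 137 CPM in WT and 74.1 and 77.9 CPM in Mef2dα2 Eko mice (log2 fold change -0.66, SE 0.13, edgeR adjusted p = 0.124). Serpinh1, the collagen chaperone HSP47, was at 39.5 and 52.8 CPM in WT and 28.3 and 36.1 CPM in Mef2dα2 Eko mice (edgeR adjusted p = 0.302). Of the HSF family and its regulators, 5 genes were tested and 0 were called, and their log2 fold changes ranged from -0.10 (Hsbp1) to 0.89, with Hsf2 at 0.01 and Hsf4 at 0.05.

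**Figure D4:**
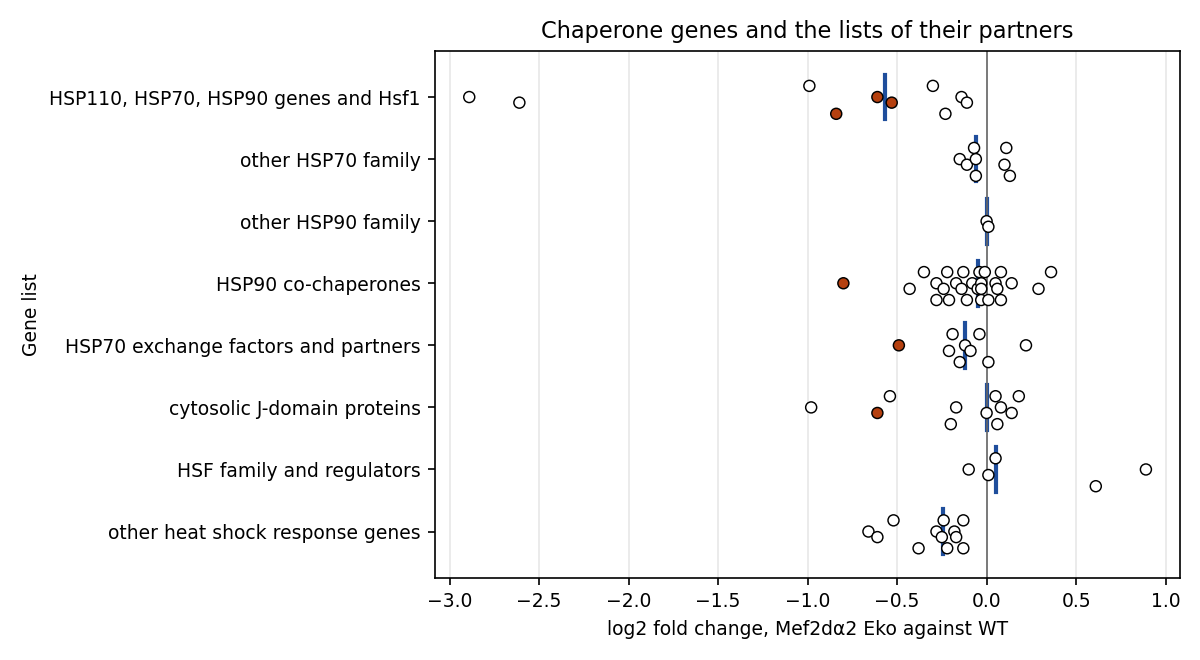
Log2 fold change in Mef2dα2 Eko compared to WT mice for each tested gene of the 10 genes and of the 7 partner lists, with 1 point per gene, filled where the adjusted p was below 0.05, and a vertical bar at the median of the list. The median is -0.57 for the 10 genes, -0.24 for the other heat shock response genes and between -0.12 and 0.05 for the remaining lists.

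The promoter elements were also counted over all genes tested. Of the 66 tested genes whose promoter held a heat shock element of 3 units, 1 (Hsph1) was called lower and 0 were called higher, with a median log2 fold change of -0.02. Of the 1524 tested genes with at least 2 units, 9 were called lower (0.591%) and 1 higher (median 0.00). Over all 10879 tested genes with a promoter in the table, 39 (0.358%) were called lower and 12 higher.

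The genes whose levels over the 4 mice were most like those of Hspa1a and Hspa1b were sought by the distance between log2 CPM centred on each gene's mean, among 12118 genes. Among the nearest were Trpm1 (distance 1.43), Chrna2 (1.75), Tph1 (1.78) and Dnajb1 (1.80), and Hsp90aa1 stood at 1.82. Of these genes Dnajb1 had the largest ratio of WT 2 to WT 1, 2.96. The genes most like Hspa4l were Pthlh at 0.0530, Crlf2 at 0.0588, Syt12 at 0.0787, Npnt at 0.106 and Emp3 at 0.115. With 4 mice, such likeness describes the order and size of 4 values.

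Markers of other cells were counted beside these results. The adipocyte markers (5 of 5 tested, 0 called) summed to 80.1 and 30.7 CPM in WT and 25.8 and 11.2 CPM in Mef2dα2 Eko mice, so that WT 1 and not WT 2 was highest. In 1 of the 5, Cfd, both Mef2dα2 Eko mice were the lower ones (23.0% of all genes tested). Cfd was at 48.5 and 16.9 CPM in WT and 8.61 and 5.72 CPM in Mef2dα2 Eko mice. The genotypes overlapped in the other adipocyte markers, of which Lep had a positive log2 fold change (0.21). The macrophage markers (5 of 5 tested, 0 called) summed to 24.4 and 20.2 CPM in WT and 16.5 and 11.9 CPM in Mef2dα2 Eko mice, and in 4 of the 5 both Mef2dα2 Eko mice were the lower ones (23.0% of all genes tested). The Schwann cell markers (4 of 4 tested, 0 called) summed to 19.8 and 21.4 CPM in WT and 23.2 and 29.6 CPM in Mef2dα2 Eko mice, and in 3 of the 4 both Mef2dα2 Eko mice were the higher ones (20.8% of all genes tested). No marker of these 3 lists was at 0 in any library. Endothelial sums (126 to 147 CPM), erythroid sums (108 to 111 CPM), tenocyte sums (6.46 to 8.54 CPM) and fibroblast sums (210.0 to 285 CPM) overlapped between the genotypes. Within the fiber list 0 of 8 markers were called, with Myh2, the myosin of type IIa fibers, at 1576 and 1709 CPM in WT and 1264 and 1041 CPM in Mef2dα2 Eko mice (edgeR adjusted p = 0.161), and Mb, the oxygen store myoglobin, at 1430 and 1303 against 1050 and 884 CPM (0.156). Both Mef2dα2 Eko mice lay below both WT mice in 4 of these 8 markers (23.0% of all genes tested) and above both in 2 (20.8%). The 2 were Ttn, with a log2 fold change of 0.22, and Myh4, with 0.07. Myh7, the slow myosin, named after its values were seen, was at 113 CPM in WT 1, 339 in WT 2, 237 in Mef2dα2 Eko 1 and 145 in Mef2dα2 Eko 2. WT 2 was highest, as for Hspa1a, Hspa1b and Hsp90aa1, but the other mice had another order than in those genes. For Myh7 WT 1 was lowest, and Mef2dα2 Eko 1 lay above Mef2dα2 Eko 2. The part of these cells and fiber types in the values of Hsph1, Hspa4l, Hspa1l and the other chaperone genes was not tested.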

How the data were processed

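RNA-seq libraries of quadriceps from 2 WT and 2 Mef2dα2 Eko male mice were analysed from the table of expected counts that the authors deposited without normalization. Per the study's methods and processing notes, reads were checked with FastQC, aligned to mm10 (STAR 2.6.1a is named among the tools) and assigned to Ensembl GRCm38 genes with RSEM, which divides reads that match several genes by a probability model. The library kit was stranded, and the strand setting used for counting is not given in the sources used here. The deposited expected counts were all whole, and rounding them for edgeR changed 0 values. The smallest total was 72626757 and the largest 85176059. Groups and replicate numbers were taken from the labels. The study describes the mice as littermates, but no source used here says that mice with the same number share a litter. The p-values rest on the spread between these mice, with the spread of each gene drawn towards that of all genes tested.

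The genotypes were compared in R 4.3.3 with edgeR 4.0.16 (quasi-likelihood test, TMM, default filter on low counts, 16120 of 24621 genes with any count kept, Benjamini-Hochberg adjustment over all genes tested, threshold 0.05), which was tested on simulated data. The study compared the genotypes with DESeq2. A prior count of 0.125 entered the log2 fold changes. The alternatives were DESeq2 1.42.0, RLE and upper-quartile normalization, no filter, a minimum of 1 CPM in 2 libraries, limma-voom (limma 3.58.1), the likelihood ratio test of edgeR, the replicate number as a block, leaving out each mouse, and adding the counts of Hspa1a and Hspa1b. The count of genes in which both Mef2dα2 Eko mice lay below WT 1 alone was added after the data were seen. Positions and exon lengths came from GENCODE M21 (GRCm38), in which 92.1% of the rows had their symbol, and promoters from RefSeq (GRCm38.p6). Coding sequences were aligned with Biopython 1.88.

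The 10 genes and all lists were chosen with earlier results of these data known. The text names the 10 genes and, of each list, those with an adjusted p below 0.05 and the 3 with the largest log2 fold change at a mean of at least 1 CPM, of which only some are printed. It also names the 5 genes nearest in pattern to Hspa1a and Hspa1b and to Hspa4l, except 1 gene that is not reported here. No pseudogene row of the 10 genes was in the table.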

Additional observations from a re-analysis of the deposited data

How the results depend on the processing

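The number of the 10 chaperone genes called, 3 with edgeR's quasi-likelihood test, became 7 with no filter on low counts (3.25% of all genes called), 1 with at least 1 CPM in 2 libraries (0.188%), 6 with edgeR's likelihood ratio test (1.94%) and 6 with the replicate number as a block (1.15%), beside 0.416% in the test reported. It was 3 with DESeq2, upper-quartile normalization, limma-voom and the added counts of Hspa1a and Hspa1b, and 2 with RLE normalization. Leaving out 1 mouse at a time gave 4 to 6 genes called (0.591% to 1.79% of all genes) and a median log2 fold change of -0.58 to -0.45, the latter without WT 2, beside -0.57 with all mice. The number of partner genes called, 3 of 74, became 10 with DESeq2 (1.97% of all genes called) and 15 with no filter on low counts. It was 1 with at least 1 CPM in 2 libraries, 8 with the likelihood ratio test and 7 with the replicate block. Not all of these had a negative log2 fold change. Fnip1 was called with DESeq2 and with no filter, and Sugt1 with no filter. Their log2 fold changes were 0.29 and 0.36 in the test reported. Over all genes the calls ranged from 23 (at least 1 CPM in 2 libraries) to 799 (no filter), beside 67. The cause of these changes was not tested.

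The log2 fold change of Hsp90ab1 was 0.03 without WT 2 and 0.00 without Mef2dα2 Eko 1 (positive before rounding), and ranged down to -0.22 without WT 1, against -0.11 with all mice. No other of the 10 genes changed sign under any alternative. Hspa4l lost its call at 1 CPM in 2 libraries (edgeR adjusted p = 0.0556). Mice with the same replicate number deviated together only weakly (r = 0.0909 across 16120 genes, which are not independent, between WT 1 and Mef2dα2 Eko 1), so the numbers were not taken to pair the mice. With the block, Hspa1a, Hspa1b and Hsp90aa1 joined the genes called. With 2 mice per genotype, a p that misses the threshold does not show that levels were alike.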
